A study of Mus musculus with 9 samples.

Results

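Open chromatin was examined at Aplnr, Nrg1, Irs4 and Fn1, 4 genes grouped here as genes of multilineage progenitors of the cardiopharyngeal mesoderm. The study used Aplnr and Nrg1 as markers of that population, and its text does not present Irs4 or Fn1 as such markers. It did list Aplnr, Nrg1 and Fn1 among genes with lower expression in these progenitors after Tbx1 loss. Its chromatin data gave each of these genes a region whose accessibility differed after Tbx1 loss. For Nrg1 and Fn1 that region lay upstream and overlapped a TBX1 binding site, and for Aplnr it did not. Accessibility differences at these genes were thus already reported from the same experiment. ATAC-seq peak lists, which mark where a transposase inserted adapters into accessible DNA, were taken from 9 libraries of mouse embryos at E9.5. A locus was the gene body plus 50 kb on each side in mm9, and the peaks of all libraries were merged into regions. Of 73335 merged regions, 26 had their midpoint in these windows: 12 at Aplnr, 8 at Nrg1, 1 at Irs4 and 5 at Fn1. The lists carry no expression values, so marker expression could not be checked in them.

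The Mesp1-Cre Ctrl group came from embryos of genotype Mesp1Cre;Rosa26-GFPflox/+, in which the Mesp1 lineage, mainly mesoderm, carries GFP. The Tbx1-Cre Ctrl libraries came from Tbx1Cre;Rosa26-GFPflox/+ embryos, in which GFP marks mesoderm, endoderm and ectoderm descended from Tbx1-expressing cells. The Cre is a knock-in that inactivates 1 Tbx1 copy, so these controls keep 1 functional copy. The Mesp1-Cre Ctrl genotype names no Tbx1 mutation. The control groups thus differ in functional Tbx1 copies as well as in lineage, which cannot be told apart here. The Tbx1-Cre cKO libraries came from Tbx1Cre/flox;Rosa26-GFPflox/+ embryos, in which the second copy is floxed and is lost in the same lineage. All embryos were Swiss Webster and carried the GFP reporter, embryos were pooled, GFP-positive living cells were sorted, and each group had 3 libraries. Male and female embryos were used, and the study did not determine their sex. The labels give the tissue as pharyngeal apparatus and heart, for the Tbx1-Cre groups also the back, whereas the methods describe pharyngeal tissue without the heart. The age, strain and reporter were thus shared, and the dissected tissue may not have been.

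Aplnr encodes the apelin receptor, a G protein-coupled receptor for the peptides apelin and Elabela. In zebrafish it is needed for the movement of early heart progenitors. The study states that mouse models do not fully reproduce this early role. Nrg1 encodes neuregulin, a ligand of ErbB receptor kinases that acts in heart trabeculation and in neural crest derivatives. Irs4 encodes an adaptor that docks to activated insulin and insulin-like growth factor receptors. Fn1 encodes fibronectin, a matrix protein bound by integrins that is needed for mesoderm migration and heart and vessel formation.

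The lists held 43298 to 49490 peaks in Tbx1-Cre Ctrl, 25485 to 42650 in Mesp1-Cre Ctrl and 19772 to 29251 in cKO. For the first Mesp1-Cre library, which has the longest list of its group, the deposited number of peaks differs from the one in the study's sample summary, and the study's main text states fewer ATAC-seq replicates than its legends. All deposited libraries were used, and the Mesp1-Cre comparisons are also given without that library. Read depth is unknown, and peaks have a position but no height, so the absence of a peak does not show that the DNA was closed. Among 6 markers of cardiopharyngeal mesoderm, 4 to 5 had a promoter peak in each Mesp1-Cre and Tbx1-Cre Ctrl library and 3 to 5 in each cKO library. Nkx2-5, a defining heart progenitor gene, had none in either Tbx1-Cre group. Of 5 endoderm and pharyngeal epithelium markers, 2 to 3, 2 to 4 and 2 had one in Mesp1-Cre Ctrl, Tbx1-Cre Ctrl and cKO libraries. Of the 4 annotated otic and ectoderm markers, 0 to 3, 1 to 2 and 0 to 1 had one. Heart muscle markers had none in any library. Within 10 kb of Tbx1 itself, 1 to 3 regions were called in the Tbx1-Cre Ctrl libraries, 1 in each Mesp1-Cre library and 0 in each cKO library. Within 50 kb the numbers were 10 to 11, 8 to 9 and 4 to 6. Fewer called regions in every cKO than in every Tbx1-Cre Ctrl library were seen at 29.0% of gene loci with the 50 kb window.

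The regions whose calls differ most between groups, the distal Aplnr region 11 called in every library, and 2 promoters that differ from each other in CpG content are printed first, so that the calls below can be read beside the DNA. Regions are numbered along the chromosome within each locus. Each sequence is the plus strand of NCBIM37 (mm9) around the middle of the region, up to 300 bases long and cut short where an annotated untranslated exon begins. Capitals mark CAGCTG, an E-box, and no other searched motif falls in these windows.
Aplnr region 7 (promoter), chr2:84976325-84976516: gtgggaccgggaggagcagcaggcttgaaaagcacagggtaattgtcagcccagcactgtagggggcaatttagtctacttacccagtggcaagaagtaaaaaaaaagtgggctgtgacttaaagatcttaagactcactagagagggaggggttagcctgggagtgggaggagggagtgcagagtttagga
Aplnr region 9, chr2:85000976-85001275: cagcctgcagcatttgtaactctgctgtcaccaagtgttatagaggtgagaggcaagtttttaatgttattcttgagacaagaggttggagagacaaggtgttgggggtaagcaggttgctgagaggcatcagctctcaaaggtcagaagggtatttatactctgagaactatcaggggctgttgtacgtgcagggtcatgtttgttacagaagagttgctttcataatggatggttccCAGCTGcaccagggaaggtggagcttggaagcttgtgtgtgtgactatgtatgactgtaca
Aplnr region 11, chr2:85003671-85003938: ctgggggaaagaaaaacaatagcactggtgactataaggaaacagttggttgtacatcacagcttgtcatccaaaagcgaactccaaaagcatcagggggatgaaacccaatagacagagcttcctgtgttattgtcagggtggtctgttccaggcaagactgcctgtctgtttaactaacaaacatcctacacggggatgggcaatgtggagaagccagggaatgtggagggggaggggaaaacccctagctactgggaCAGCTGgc
Aplnr region 12, chr2:85012718-85013017: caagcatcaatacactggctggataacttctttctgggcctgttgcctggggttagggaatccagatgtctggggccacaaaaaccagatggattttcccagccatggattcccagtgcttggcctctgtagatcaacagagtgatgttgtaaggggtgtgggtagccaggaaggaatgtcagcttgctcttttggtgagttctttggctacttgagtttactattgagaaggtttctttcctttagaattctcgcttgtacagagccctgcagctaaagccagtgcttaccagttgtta
Nrg1 region 2, chr8:32996147-32996446: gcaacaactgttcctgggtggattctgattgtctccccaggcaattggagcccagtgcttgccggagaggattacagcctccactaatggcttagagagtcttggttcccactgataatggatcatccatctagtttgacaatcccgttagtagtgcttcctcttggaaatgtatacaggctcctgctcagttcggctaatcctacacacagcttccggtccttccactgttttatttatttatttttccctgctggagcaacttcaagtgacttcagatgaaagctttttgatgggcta
Nrg1 region 5, chr8:33030090-33030389: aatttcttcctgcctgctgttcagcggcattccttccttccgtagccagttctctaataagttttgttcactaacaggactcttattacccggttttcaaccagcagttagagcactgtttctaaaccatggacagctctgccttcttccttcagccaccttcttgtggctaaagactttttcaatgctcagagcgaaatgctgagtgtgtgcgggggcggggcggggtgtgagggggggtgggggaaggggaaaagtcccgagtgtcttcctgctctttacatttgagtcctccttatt
Irs4 region 1 (promoter), chrX:138159807-138160056: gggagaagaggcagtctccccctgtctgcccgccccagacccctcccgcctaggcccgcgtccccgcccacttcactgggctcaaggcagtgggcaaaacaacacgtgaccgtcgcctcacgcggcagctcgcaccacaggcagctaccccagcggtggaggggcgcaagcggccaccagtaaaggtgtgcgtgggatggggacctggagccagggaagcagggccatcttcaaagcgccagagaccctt
Fn1 region 4, chr1:71720101-71720400: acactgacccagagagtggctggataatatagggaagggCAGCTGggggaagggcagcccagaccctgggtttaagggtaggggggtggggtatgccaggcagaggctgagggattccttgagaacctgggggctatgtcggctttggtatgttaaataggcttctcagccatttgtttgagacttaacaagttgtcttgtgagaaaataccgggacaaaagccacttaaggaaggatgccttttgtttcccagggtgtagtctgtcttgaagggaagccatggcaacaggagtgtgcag

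Some regions were called in every library and others in a single one, in shares near those of all merged regions. In 5 of the 26 regions all 9 libraries had a peak, beside 18.6% of all merged regions: the promoters of Nrg1, Irs4 and Fn1, the promoter of Atic at the edge of the Fn1 window, and Aplnr region 11. A peak in a single library made up 10 regions of 200 to 585 bp, against 31.6% of all merged regions. All 3 libraries of at least 1 group called 12 regions, which are described below, against 43.0% of all merged regions. In 3 of 3 Tbx1-Cre Ctrl libraries 11 regions were called, against 39.7%. By library, 12, 16 and 15 of the 26 regions were called in Tbx1-Cre Ctrl, 15, 9 and 11 in Mesp1-Cre Ctrl, and 8, 6 and 6 in cKO. A cKO peak was present in 9 regions, against 43.6% of all merged regions. Each of the 9 also had a Tbx1-Cre Ctrl peak, and a cKO peak without one was seen in 2.35% of all merged regions.

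**Figure D1:**
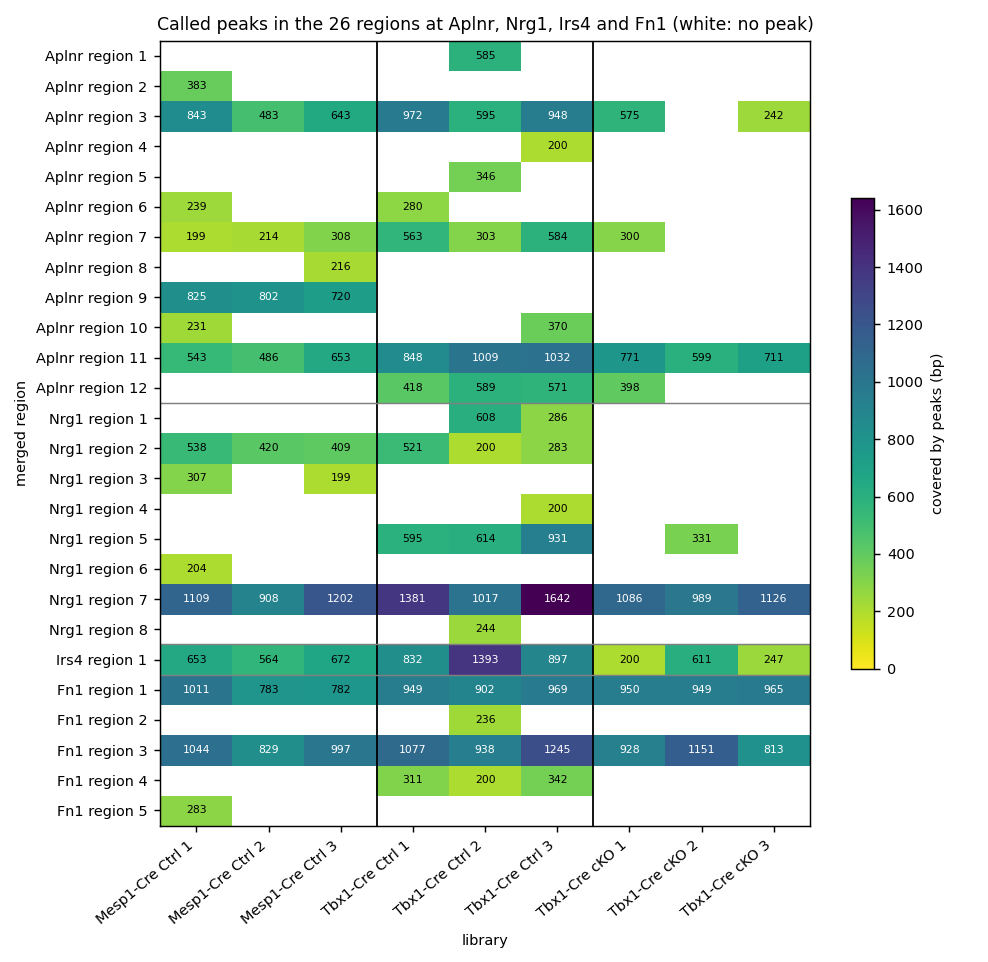
Base pairs covered by called peaks in the 26 regions (rows, numbered along the chromosome within each locus) and the 9 libraries (columns), with white where no peak was called. The promoters of Nrg1, Irs4 and Fn1 were filled in every library, Aplnr region 9 in the Mesp1-Cre libraries alone, and Nrg1 region 2 and Fn1 region 4 in no cKO library.

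Aplnr (ENSMUSG00000044338.7, chr2:84976517-84980079, plus strand) had the densest set of regions, and the cKO libraries called fewer of them. The Tbx1-Cre Ctrl libraries called 5, 6 and 6 regions and the cKO libraries 4, 1 and 2, so the groups did not overlap. The means were 5.67 ± 0.577 and 2.33 ± 1.53 (SD, n = 3), a difference of -3.33 regions (exact permutation test, two-sided, p = 0.1, which is the smallest p that 3 libraries against 3 allow). Covered length was 3081, 3427 and 3705 bp in Tbx1-Cre Ctrl and 2044, 599 and 953 bp in cKO, a difference of -2206 bp (exact permutation test, p = 0.1). Every cKO library below every Tbx1-Cre Ctrl library was also seen in the number of called regions at 29.0% of the 19823 gene loci with a Tbx1-Cre call, and in covered length at 68.5%. The Aplnr cKO mean was 41.2% of the Tbx1-Cre Ctrl mean in regions and 35.2% in length, where the medians over 19796 gene loci were 64.3% and 57.1%. With the 19772 widest peaks kept in every list, the difference in called regions shrank to -0.667 (p = 0.8, exact permutation test) and that in covered length to -1274 bp (p = 0.1, exact permutation test). These are mixed cell populations, in which fewer cells of a type and less open chromatin per cell cannot be told apart, and the shorter cKO lists move with the same comparison.

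The Aplnr promoter, region 7, lies at chr2:84976159-84976791 with its midpoint 42 bp upstream of the start site. Its peaks covered 563, 303 and 584 bp in Tbx1-Cre Ctrl and 199, 214 and 308 bp in Mesp1-Cre Ctrl, while cKO library 1 had 300 bp and cKO libraries 2 and 3 had no peak. The promoter was thus called in 7 of 9 libraries, whereas the regions at the 5′ ends of Nrg1, Irs4 and Fn1 were called in all 9. Its window was also poor in CpG, with an observed to expected ratio of 0.14 over 500 bp, against 0.91 at the Nrg1 promoter, 0.73 at Fn1 and 0.51 at Irs4. The median ratio was 0.76 over regions called in all 9 libraries and 0.24 over the others.

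Farther out, 4 regions showed 4 different patterns. Region 3, intergenic and 12.5 kb upstream (chr2:84963472-84964573), covered 972, 595 and 948 bp in Tbx1-Cre Ctrl, 843, 483 and 643 bp in Mesp1-Cre Ctrl, and 575, 0 and 242 bp in cKO. It was called in all control libraries and had shorter peaks, or none, in cKO, so that the groups of the Tbx1-Cre comparison did not overlap. Such a separation was seen in 50.1% of the 24215 regions called in 3 of 3 Tbx1-Cre Ctrl and at least 1 cKO library. By length within each list, region 3 lay at percentiles 87.4, 58.2 and 86.9 in Ctrl and 59.7 and 15.6 in the cKO libraries 1 and 3, ranges that overlap. Region 11 (chr2:85003273-85004304) lies 27.3 kb downstream of the start site. Its midpoint is in introns of Lrrc55 and Gm13713, and it overlaps an annotated untranslated exon. It was called in all 9 libraries, with 848, 1009 and 1032 bp in Tbx1-Cre Ctrl, 543, 486 and 653 bp in Mesp1-Cre Ctrl and 771, 599 and 711 bp in cKO. Its cKO peaks were shorter on average (difference -269.3 bp, exact permutation test, p = 0.1, n = 3 per group), and no cKO value reached the Ctrl values. Such a separation in length was seen in 45.0% of the 14928 regions called in all 6 Tbx1-Cre libraries. Relative to the other regions of the same list, region 11 lay at percentiles 80.7, 91.1 and 90.5 of length in Ctrl and 81.2, 59.5 and 77.2 in cKO, ranges that overlap.

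The other pair of distal Aplnr regions differed between the Mesp1-Cre and Tbx1-Cre Ctrl libraries, which differ in lineage, Tbx1 copies and, by the labels, tissue. Region 9 (chr2:85000708-85001544), 24.6 kb downstream and 191 bp from the start of the noncoding gene Gm13713, covered 825, 802 and 720 bp in the Mesp1-Cre libraries and was called in none of the 6 Tbx1-Cre libraries. This pattern was held by 0.663% of all merged regions, and by 1 of the 26. Region 12 (chr2:85012573-85013163), 36.4 kb downstream with its midpoint in introns of the same genes as region 11, had no peak in any Mesp1-Cre library. It covered 418, 589 and 571 bp in Tbx1-Cre Ctrl and 398 bp in cKO library 1, with no peak in the other cKO libraries. How many of all merged regions share this pattern was not computed, and the Tbx1-Cre Ctrl lists were the longest. Regions 9, 11 and 12 span about the same neighbourhood and have the start of Gm13713 as the nearest one, so that their assignment to Aplnr rests on the window alone. The remaining 7 Aplnr regions were called in 1 or 2 libraries, and none of them in cKO.

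Against the Mesp1 lineage, the ranges of the Tbx1-Cre Ctrl libraries at Aplnr overlapped. The Mesp1-Cre libraries called 7, 4 and 5 regions over 3263, 1985 and 2540 bp. The difference from Tbx1-Cre Ctrl was -0.333 regions (p = 1) and -808 bp (p = 0.2, both exact permutation tests, n = 3 per group). Without the first Mesp1-Cre library the differences were -1.17 regions and -1142 bp. The sign of the difference in regions was not stable: it was 0.333 without Mesp1-Cre library 2, and 0.392 when scaled to 10000 peaks of each list (p = 0.1, exact permutation test). With 19772 peaks in each list the differences were 0 regions and -466 bp (p = 0.3, exact permutation test).

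**Figure D2:**
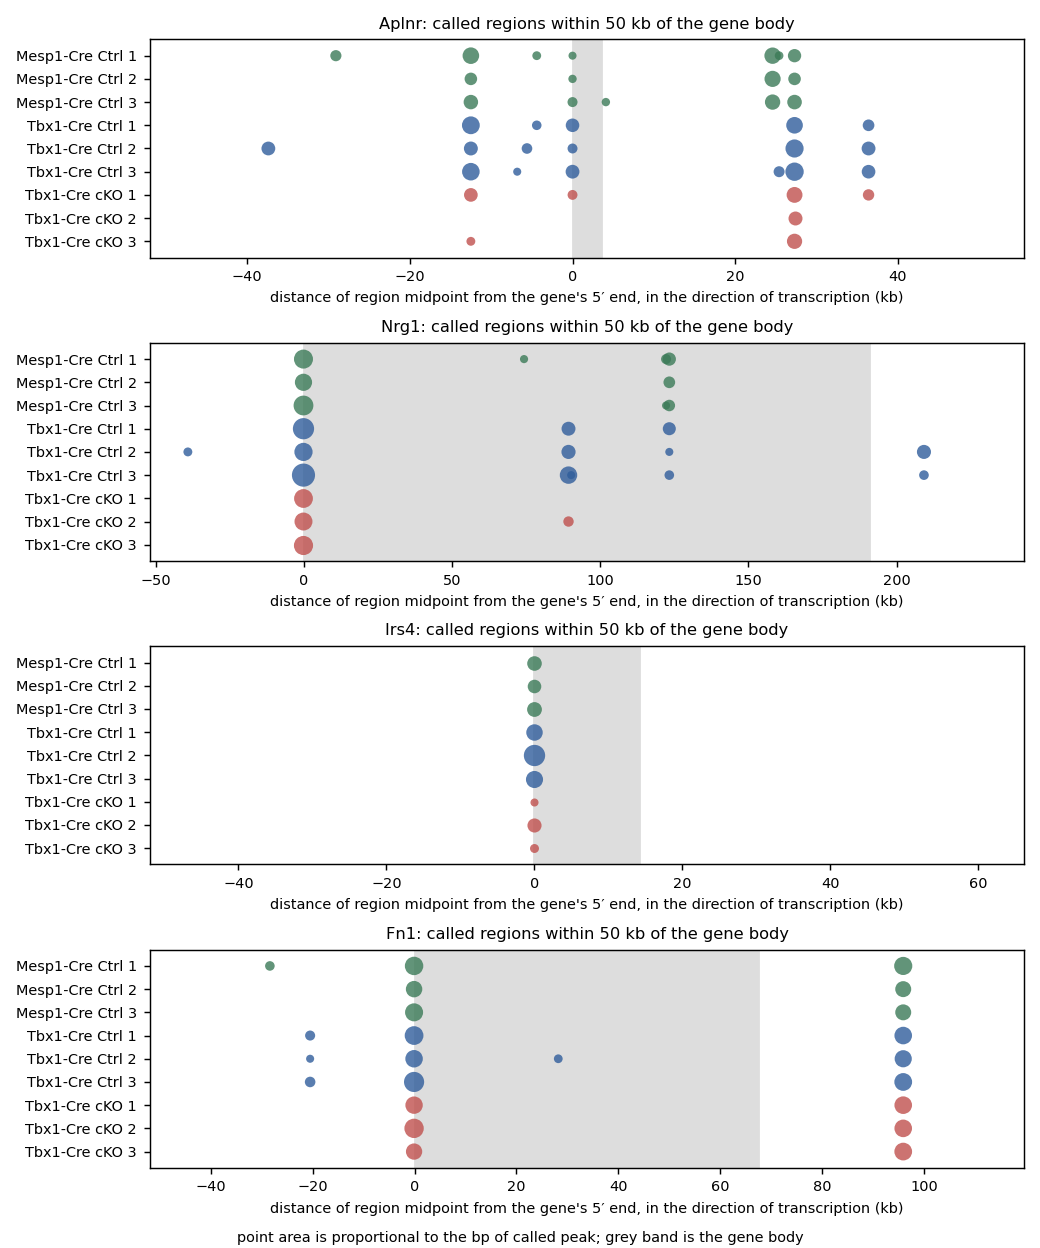
Called regions along the 4 loci, with distance from the 5′ end of the gene in kb on the x axis and the 9 libraries on the y axis. The area of each point is proportional to the bp of called peak and the grey band is the gene body. Aplnr shows points at 24.6 kb in the 3 Mesp1-Cre libraries and at 36.4 kb in the 3 Tbx1-Cre Ctrl libraries and cKO library 1.

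At Nrg1 (ENSMUSG00000062991.5, chr8:32928500-33119581, minus strand), the promoter at the 5′ end of the gene was called in every library. The only other cKO call at the locus was in region 5, inside the gene, in cKO library 2. There were more control than cKO libraries, and the cKO lists were shorter than the Tbx1-Cre Ctrl lists. The Tbx1-Cre Ctrl libraries called 3, 5 and 5 regions and the cKO libraries 1, 2 and 1. The difference of -3 regions had p = 0.1 and that of -1663 bp in covered length, from 2841 ± 444 to 1177 ± 125 bp, also p = 0.1 (exact permutation tests, n = 3 per group). The groups did not overlap in either measure, as at 29.0% of the 19823 gene loci in called regions and at 68.5% in covered length. The cKO mean was 30.8% of Ctrl in regions and 41.4% in length, where the medians over gene loci were 64.3% and 57.1%. With 19772 peaks in each list the differences were -0.667 regions (p = 0.7, exact permutation test) and -744 bp (p = 0.1, exact permutation test). Longer Nrg1 transcripts that start farther upstream are known and are not in this annotation, so their regions were not counted.

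The Nrg1 promoter, region 7 (chr8:33118826-33120589), had the highest covered length of the 26 regions, 1642 bp in 2 peaks in Tbx1-Cre Ctrl library 3. Its peaks covered 1381, 1017 and 1642 bp in Tbx1-Cre Ctrl, 1109, 908 and 1202 bp in Mesp1-Cre Ctrl and 1086, 989 and 1126 bp in cKO. The cKO and Ctrl values overlapped (difference -279.7 bp, exact permutation test, p = 0.3, n = 3 per group). The difference was -132 bp without Ctrl library 3, -444.5 bp without Ctrl library 2, and -137 bp with 19772 peaks in each list. By length it lay at percentiles 90.6 to 97.7 of the cKO lists and 91.4 to 99.3 of the Tbx1-Cre Ctrl lists.

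A pair of intronic Nrg1 regions differed in which groups of libraries called them. Region 2 (chr8:32996002-32996591) lies 32378 bp from the nearest annotated Nrg1 start site and covered 521, 200 and 283 bp in Tbx1-Cre Ctrl and 538, 420 and 409 bp in Mesp1-Cre Ctrl, with no peak in cKO. It was the one region of the 4 loci called in all 6 control libraries and in no cKO library, a pattern of 0.852% of all merged regions. Region 5 (chr8:33029761-33030718), 1565 bp from an internal Nrg1 start site, covered 595, 614 and 931 bp in Tbx1-Cre Ctrl and 331 bp in cKO library 2, and had no peak in the other cKO or in the Mesp1-Cre libraries. The share of all merged regions with the pattern of region 5 was not computed. Region 4, 722 bp from the same internal start site and so a promoter region of the shorter transcript, had a 200 bp peak in Tbx1-Cre Ctrl library 3 and no other call. The remaining 4 Nrg1 regions were called in 1 or 2 libraries, and none of them in cKO. Against Tbx1-Cre Ctrl, the Mesp1-Cre libraries called 4, 2 and 3 Nrg1 regions (difference -1.33, exact permutation test, p = 0.3). They covered 2158, 1328 and 1810 bp, all below the Ctrl libraries (difference -1075 bp, exact permutation test, p = 0.1). With 19772 peaks in each list that difference was -316 bp (p = 0.4, exact permutation test), and without the first Mesp1-Cre library the differences were -1.83 regions and -1272 bp. Such a separation between Mesp1-Cre and Tbx1-Cre Ctrl in covered length was seen at 25.4% of 19998 gene loci, and in called regions, where none of the 4 genes showed it, at 10.6%.

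Irs4 (ENSMUSG00000054667.7, chrX:138145541-138159806, minus strand) had a single region, its promoter, within 50 kb. Region 1 (chrX:138159139-138160675) was called in all 9 libraries, so the groups differed in the length of the peak and not in the number of calls. It covered 832, 1393 and 897 bp in Tbx1-Cre Ctrl, 653, 564 and 672 bp in Mesp1-Cre Ctrl and 200, 611 and 247 bp in cKO. Every cKO value lay below every Tbx1-Cre Ctrl value, with means of 353 ± 225 and 1041 ± 307 bp and a difference of -688 bp (exact permutation test, p = 0.1, n = 3 per group). Such a separation was seen in 45.0% of the 14928 regions called in all 6 Tbx1-Cre libraries, and in covered length at 68.5% of gene loci. Among the 5 regions called in all libraries the Irs4 promoter had the largest difference in length. On the scale of the percentile of length within each list, the Irs4 promoter stood at 79.7, 98.4 and 84.5 in Ctrl and at 3.4, 60.8 and 16.6 in cKO. The ranks too did not overlap, a comparison that was not tested, and how many other regions share this was not computed. The 200 bp of cKO library 1 is the shortest peak width in its list. With 19772 peaks in each list the difference was -477 bp (p = 0.4, exact permutation test). The Mesp1-Cre values also lay below those of Tbx1-Cre Ctrl (difference -411 bp, exact permutation test, p = 0.1), as in 25.4% of gene loci. That difference was -134 bp with 19772 peaks in each list (p = 0.7, exact permutation test) and -261 bp with the widest 75% of each list (p = 0.5, exact permutation test). It was -235 bp without Ctrl library 2 and -423 bp without the first Mesp1-Cre library.

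Fn1 (ENSMUSG00000026193.8, chr1:71632094-71699774, minus strand) differed least between cKO and Tbx1-Cre Ctrl in covered length. Its promoter, region 3 (chr1:71699178-71700566), which it shares with the annotated gene Apol7d, covered 1077, 938 and 1245 bp in Tbx1-Cre Ctrl, 1044, 829 and 997 bp in Mesp1-Cre Ctrl and 928, 1151 and 813 bp in cKO. The cKO and Ctrl values overlapped (difference -123 bp, exact permutation test, p = 0.4, n = 3 per group). The difference ranged from -43.5 bp without Ctrl library 3 and -47.2 bp without cKO library 3 to -197 bp without Ctrl library 2 and -216 bp without cKO library 2. Region 1 (chr1:71603290-71604432), 74 bp from the start site of Atic, an enzyme gene of purine synthesis, covered 902 to 969 bp in Ctrl, 949 to 965 bp in cKO and 782 to 1011 bp in Mesp1-Cre (cKO minus Ctrl 14.7 bp, exact permutation test, p = 0.8). Over the Fn1 window the Ctrl libraries called 3, 4 and 3 regions and the cKO libraries 2 each (difference -1.33, exact permutation test, p = 0.1). Covered length was 2337, 2276 and 2556 bp in Ctrl and 1878, 2100 and 1778 bp in cKO (difference -471 bp, exact permutation test, p = 0.1). Its cKO mean was thus 80.3% of Ctrl in length, above the median of 57.1% over gene loci, and 60% in called regions, below the median of 64.3%. The cKO and Ctrl libraries did not overlap in either measure, as at 29.0% of gene loci in called regions and at 68.5% in covered length. With 19772 peaks in each list the difference in called regions was 0, and that in covered length was -108 bp (p = 0.6, exact permutation test). The Mesp1-Cre libraries called 3, 2 and 2 regions over 2338, 1612 and 1779 bp, ranges that overlap those of Tbx1-Cre Ctrl (differences -1 region and -480 bp, both p = 0.3, exact permutation tests). Without the first Mesp1-Cre library they were -1.33 regions and -694 bp, and with 19772 peaks in each list 0 regions and -211 bp (p = 0.3, exact permutation test).

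Upstream of Fn1, region 4 (chr1:71720080-71720421) is intergenic and 20.5 kb from the 5′ end. It covered 311, 200 and 342 bp in Tbx1-Cre Ctrl and was called in none of the cKO or Mesp1-Cre libraries, a pattern of 3.10% of all merged regions. Fn1 region 4 and Nrg1 region 2 were the 2 regions called in 3 of 3 Tbx1-Cre Ctrl and 0 of 3 cKO libraries, of 20 with a Tbx1-Cre call, where the share over all 64748 such regions was 7.62%. The remaining Fn1 regions, 2 and 5, were called in 1 library each. Nrg1 region 2 and Fn1 region 4 had short peaks in Ctrl, of 200 to 521 bp, and with the widest 75% of each list kept the count was 0. Leaving out cKO library 1 raised the count to 4, since the Aplnr promoter and Aplnr region 12 were called in that cKO library alone.

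**Figure D3:**
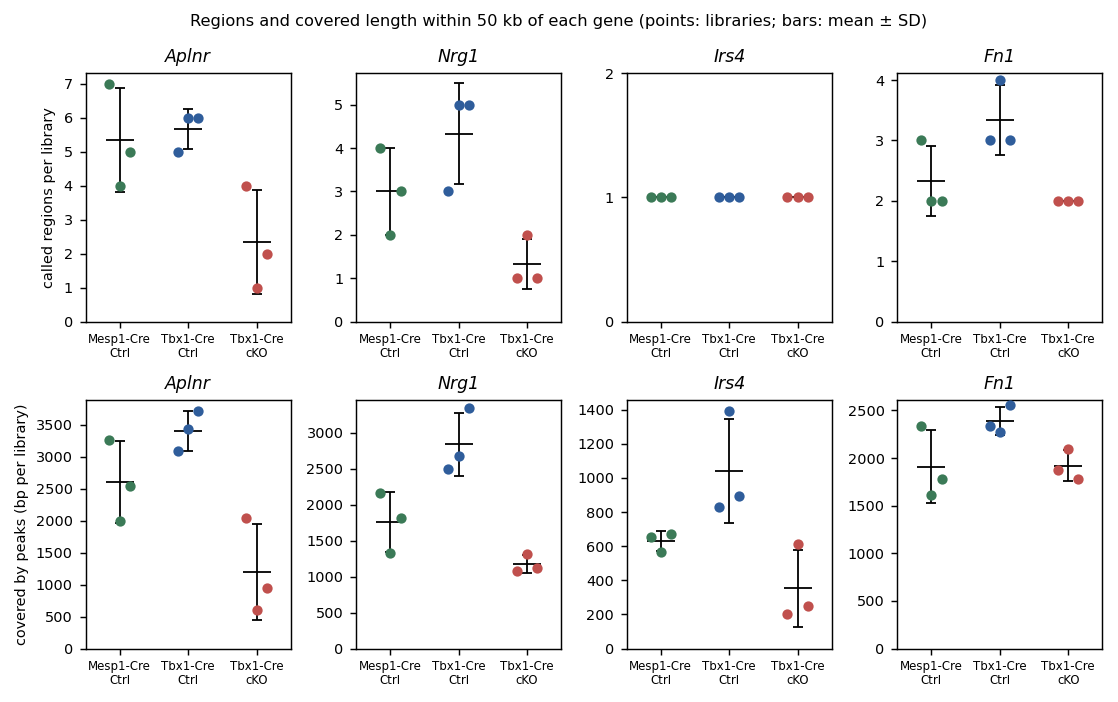
Called regions (top) and bp covered by peaks (bottom) per library within 50 kb of each gene, for the 3 groups, with points for libraries and bars for the mean ± SD. The cKO points lie below all Tbx1-Cre Ctrl points at the 4 genes in covered length, and at Aplnr, Nrg1 and Fn1 in called regions. Such a separation was seen at 68.5% of gene loci in covered length and at 29.0% in called regions.

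**Figure D4:**
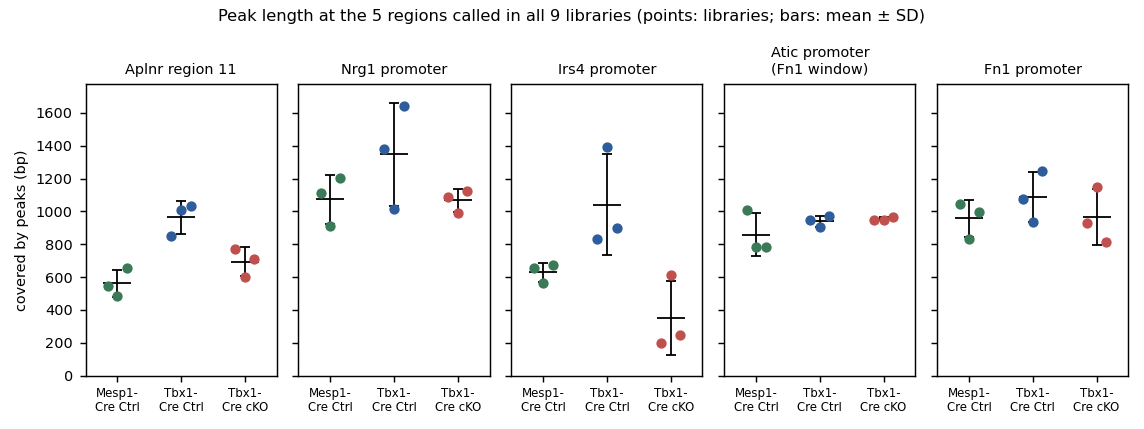
Base pairs covered by peaks at the 5 regions called in all 9 libraries, per library (points) with the mean ± SD (bars). The cKO and Tbx1-Cre Ctrl points are apart at Aplnr region 11 and the Irs4 promoter and overlap at the promoters of Nrg1, Fn1 and Atic.

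The motifs searched were the T-box site AGGTGTGA, the GATA site AGATAA, the forkhead site TGTTTAC and the E-box CAGCTG, on both strands of the middle 500 bp of each region, and no motif contains another. The E-box was present in 7 of the 26 regions, and in 34.7% of all regions. It lay in Aplnr regions 9 and 11, in Fn1 region 4 and in the Nrg1 promoter among those described above. The GATA site was present in 4 regions, including Aplnr region 12, where it falls outside the bases printed, against 20% of all regions. The forkhead site was present in 1 region, against 7.33%, and AGGTGTGA in 0, against 1.62%. Of the regions in all windows, 11 had the start site of another gene as the nearest one.

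Among 21 genes that act with the 4, the same comparison was made over their own windows. In the number of called regions every cKO library lay below every Tbx1-Cre Ctrl library at 10 of the 21 genes, and above at 0, where the share below was 29.0% over all gene loci. The share above is not given here, and the 21 loci were not matched to the others in their number of regions. Of the 2 apelin receptor ligands, Apln had 2, 3 and 1 regions in Ctrl and 0 in each cKO library, while Apela, annotated as Gm10664, had 2, 2 and 3 against 2, 1 and 1, which overlap. Of 7 neuregulin and ErbB genes, 2 were lower in all cKO libraries: Nrg3 with 2, 6 and 7 against 1 in each, and Egfr with 5, 7 and 7 against 3, 2 and 2. Erbb3, a receptor of neuregulin, had 9, 9 and 8 against 9, 8 and 7. Erbb4, the other receptor, had 1, 6 and 8 in Ctrl, 0, 1 and 1 in cKO and 9, 5 and 5 in Mesp1-Cre, and its Ctrl and cKO ranges met at 1.

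In the insulin and insulin-like growth factor list, 3 of 6 genes were lower in all cKO libraries. They were the adaptor gene Irs2 with 10, 8 and 8 against 6, 2 and 4, and the ligand genes Igf1 with 6, 6 and 8 against 4, 3 and 3 and Igf2 with 5, 4 and 5 against 1, 3 and 1. Of 6 fibronectin receptor genes, 4 were lower, namely Itga4, Itga5, Itga8 and Itgb3. Itga5, the main fibronectin receptor subunit, had 10, 13 and 12 regions in Ctrl and 7, 4 and 5 in cKO, while its partner Itgb1 had 2, 5 and 5 against 3, 2 and 3. The Mesp1-Cre libraries lay below Tbx1-Cre Ctrl at 8 of the 21 genes, where the share over all gene loci was 10.6%, and above at 0. These counts move with the shorter cKO and Mesp1-Cre lists. The parts of list length and of the number of regions per locus in them were not tested.

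**Figure D5:**
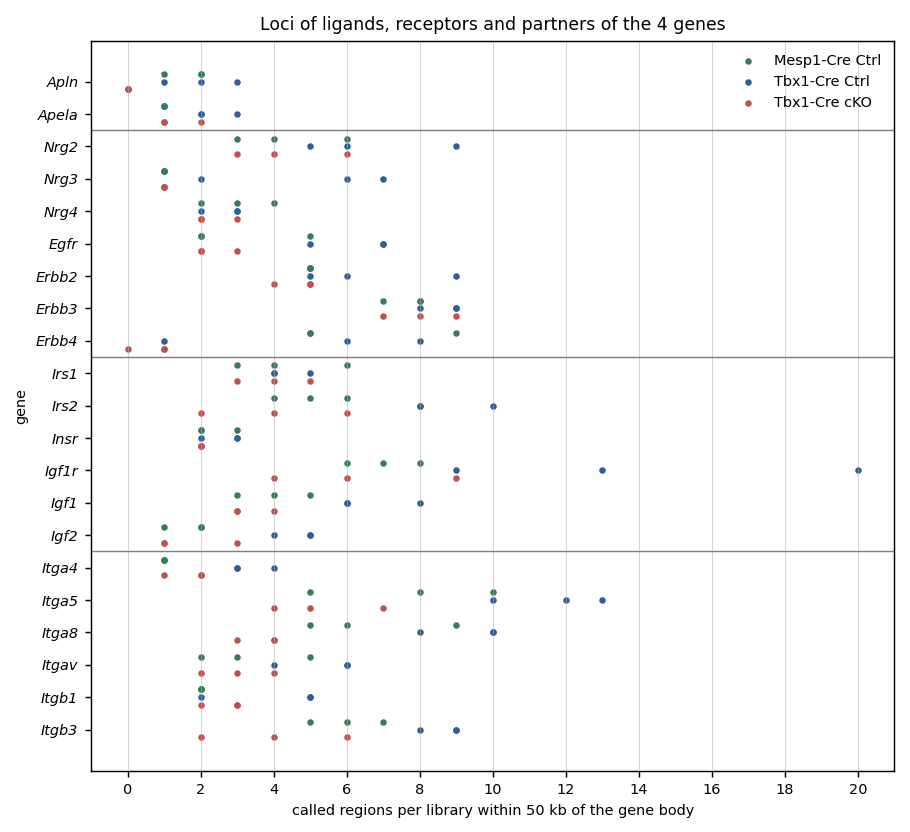
Called regions per library within 50 kb of 21 genes (rows) that act with Aplnr, Nrg1, Irs4 or Fn1, with 1 point per library coloured by group and lines between the 4 gene lists. Apln has no cKO peak, and at Itga5 and Itga8 the cKO points lie to the left of the Tbx1-Cre Ctrl points.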

How the data were processed

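Peak lists from ATAC-seq of 9 libraries, 3 per group as the labels give, were analysed. The authors trimmed reads, aligned them to mm9 with Bowtie2 2.3.4.3, removed duplicates and called peaks in each library with MACS2 2.1.2.179 (versions per the submitters' processing notes). The deposited values are start and end positions in bp, with no score or p-value, so no count test was possible and read depth is unknown.

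Overlapping or touching peaks of the 9 lists were merged. A region belonged to a gene if its midpoint lay in the gene body plus 50 kb (GENCODE vM1, NCBIM37, the build of the lists). A region was called in a library with at least 1 peak, and its covered length is the sum of its peaks. Gene loci were protein-coding genes with a region in the window. The difference of 2 group means was tested by exact permutation (two-sided) over the 20 relabellings of 3 libraries against 3. The labels do not say that libraries came from separate litters, so p-values measure the spread between these libraries. Regions called in all 3 libraries of at least 1 group, and promoter regions (within 1 kb of any start site of the 4 genes), were named, and a gene's promoter without further words is the region at its annotated 5′ end. The study tested read counts in peaks, which the lists do not hold.

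The alternatives were windows of 10 and 100 kb, any overlap with the window, merging across 200 bp, the 19772 widest peaks of each list, the widest 75% of each list, scaling to 10000 peaks, each library left out, and a replicate block. No list was a copy of another. The 4 genes, the lists of other genes and the motifs were chosen with earlier results of these data known. The scripts ran under Python 3.11.15 with scipy 1.17.1, pandas 2.3.3, numpy 2.4.6 and matplotlib 3.10.9, and were tested on simulated data.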

Additional observations from a re-analysis of the deposited data

How the results depend on the processing

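Of 268 recomputed values for 22 results, 250 counted as unchanged, and with 3 libraries per group none could pass a threshold of 0.05. For differences this meant the same sign, or 0 where the reported value was 0, and for the count of regions a limit on its fold change. Part of the 250 could not change. The 21 replicate-block values equal the reported differences by arithmetic, the Irs4 promoter repeats the Irs4 locus, and every library called the single Irs4 region. The cause of the exceptions was not tested. With the 19772 widest peaks per list, the difference in called regions was 0 between Mesp1-Cre and Tbx1-Cre Ctrl at Aplnr, Nrg1 and Fn1, 0.333 at Irs4, and 0 between cKO and Ctrl at Fn1, and no region was called in 3 Ctrl and 0 cKO libraries (0, as also with the widest 75%). That count was 1 with a 10 kb window. Per 10000 peaks of the list, the differences in called regions were 0.392 (Aplnr) and 0.103 (Irs4) for Mesp1-Cre minus Ctrl, and 0.206 (Irs4) and 0.12 (Fn1) for cKO minus Ctrl. At Irs4 the 100 kb window gave -0.333 in both comparisons and the widest 75% gave -0.667 for cKO.

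Leaving out 1 library at a time, cKO minus Ctrl in called regions ranged from -4.17 to -2.67 at Aplnr, -3.67 to -2.67 at Nrg1 and -1.5 to -1 at Fn1, and in covered length from -2628 to -1906, -1835 to -1413 and -562 to -388 bp at these genes and from -817 to -512 bp at Irs4. Mesp1-Cre minus Ctrl ranged from -1.17 to 0.333 regions at Aplnr, where leaving out Mesp1-Cre library 2 turned the sign. The count of regions in 3 Ctrl and 0 cKO libraries ranged from 2 to 4, and the Atic promoter difference from -4.33 bp, without Ctrl library 2, to 29.2 bp.

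Pairing libraries by replicate number (replicate block, exact sign-flip test over 3 pairs, smallest p 0.25) left the differences as they were, such as -3.33 regions at Aplnr, with p of 0.25 or more for all 21 results. The labels do not say that the numbers pair the samples. Correlations of same-numbered deviations were 0.078, 0.002 and 0.005 for cKO and Ctrl, where libraries 2 and 3 correlated more with another number, and 0.096, 0.089 and 0.012 for Mesp1-Cre and Ctrl, where each correlated best with its own.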

Other observations

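Regions 50 to 250 kb from the gene bodies were listed after seeing the data. There were 17 at Aplnr, 9 at Nrg1, 4 at Irs4 and 11 at Fn1. A peak in all 3 Tbx1-Cre Ctrl and in no cKO library was present in 0 of those at Aplnr and Irs4, in 2 at Fn1 and in 1 at Nrg1. Of all merged regions with a Tbx1-Cre call, 7.62% had this pattern, so these few regions do not set the 4 loci apart. The Nrg1 region (chr8:33245978-33246923) is intergenic, 126.9 kb upstream of the annotated 5′ end. It was called in the 3 Mesp1-Cre libraries as well, a pattern of 0.852% of all merged regions. The Fn1 regions lie 211.8 and 240.8 kb upstream of Fn1 and were called in 2 and 1 of the 3 Mesp1-Cre libraries.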
